A study of Drosophila melanogaster with 2 samples.

Results

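Genes for RNA polymerase II, the Mediator complex and the general transcription factors of Drosophila melanogaster were examined for binding of E(var)3-9 at their promoters. The 62 genes were the protein-coding genes on the 6 main chromosome arms whose symbols start with Polr2, MED, TfII or Taf followed by a capital letter or digit, out of 13945 protein-coding genes in all. They comprised 13 Polr2 genes, 25 MED genes, 9 TfII genes and 15 Taf genes. Binding had been measured by chromatin immunoprecipitation and sequencing (ChIP-seq) in whole embryos of mixed sex, 0 to 24 h old, from a stably transformed line carrying E(var)3-9 with a GFP tag at its C terminus. E(var)3-9 is a zinc finger protein named for mutations that enhance the silencing of genes placed near heterochromatin. The DNA was sheared to 200 to 800 bp and precipitated with an antibody to GFP. The 2 biological replicates, numbered 2 and 3, formed a single group and came from 1 fly line, so their spread covers separate samples of that line. No other genotype and no control sample was analysed here, and whole embryos mix all tissues and stages of the interval.

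RNA polymerase II transcribes all protein-coding genes. The general factors, TFIIA, TFIIB, TFIID, TFIIE, TFIIF and TFIIH, place it on the core promoter, where TFIID, made of the TATA-binding protein and its associated factors (TAFs), recognises the start site. Mediator carries signals from activators bound at enhancers to the polymerase. Most of these genes are used in nearly every cell of the fly.

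Each value below is the score that the peak caller gave a region, its signal, as deposited by the authors. Its scale is not stated in the sources used here, so it serves to rank regions within a list. A gene was counted as bound when the summit of a region lay within 500 bp of any of its annotated transcription start sites (TSSs). The strictest list holds the 3438 regions that passed a reproducibility threshold (irreproducible discovery rate, IDR) and is called the IDR peaks here. These were the 3438 strongest regions of the joint list of 24963 regions, and the weakest of them had a joint signal of 58.2. The list of each replicate holds 30000 regions. The median signal was 89.3 over the IDR peaks, 24.9 over the joint list, 13.4 in replicate 2 and 13.3 in replicate 3. Read depth is unknown, and a promoter absent from a list had no region above that list's cut, which does not show absence of binding.

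The following stretches, of 81 bases each, run from 40 bp on one side of the IDR summit to 40 bp on the other. They come from 1 member of each of the 4 gene groups, chosen for a strong peak whose summit stretch lies outside annotated exons. Capitals mark the 9 bases centred on the summit, and each is written 5′ to 3′ on the strand of the named gene, from the RefSeq copy of the Release 6 genome (dm6).
Polr2B, chr3R:14125648-14125728, plus strand: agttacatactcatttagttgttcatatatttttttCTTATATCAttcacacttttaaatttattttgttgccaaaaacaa
MED27, chr3R:5654951-5655031, plus strand: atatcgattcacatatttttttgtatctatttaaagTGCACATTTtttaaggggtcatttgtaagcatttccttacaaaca
TfIIB, chr2L:10430938-10431018, plus strand: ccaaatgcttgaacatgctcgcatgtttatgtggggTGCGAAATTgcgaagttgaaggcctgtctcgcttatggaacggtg
Taf4, chr3L:16113609-16113689, plus strand: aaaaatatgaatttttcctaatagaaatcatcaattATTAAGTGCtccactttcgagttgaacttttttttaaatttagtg
A and T made up 79.0% of the Polr2B stretch, 72.8% of the MED27 stretch, 76.5% of the Taf4 stretch and 50.6% of the TfIIB stretch.

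An IDR peak lay at the promoter of 23 of the 62 members (37.1%), beside 16.5% of all protein-coding genes. By gene group these were 12 of 25 MED genes (48.0%), 3 of 9 TfII genes (33.3%), 4 of 13 Polr2 genes (30.8%) and 4 of 15 Taf genes (26.7%). The 4 shares were each above the 16.5% of all protein-coding genes, but the groups are small and genes are not replicates, so no test was made between them. With every region of the joint list, 40 of 62 members had a region (64.5%), beside 42.4% of all protein-coding genes. Of these 40 members, 23 passed the IDR threshold (57.5%), beside 38.9% of the protein-coding genes that had a joint region. Among the 860 strongest IDR peaks, 9 members remained (14.5%), beside 5.25% of all protein-coding genes, and those included all 4 bound Polr2 genes but no TfII gene. The strongest IDR peaks at the 23 bound members were 23 distinct regions, with no region counted for 2 members.

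**Figure D1:**
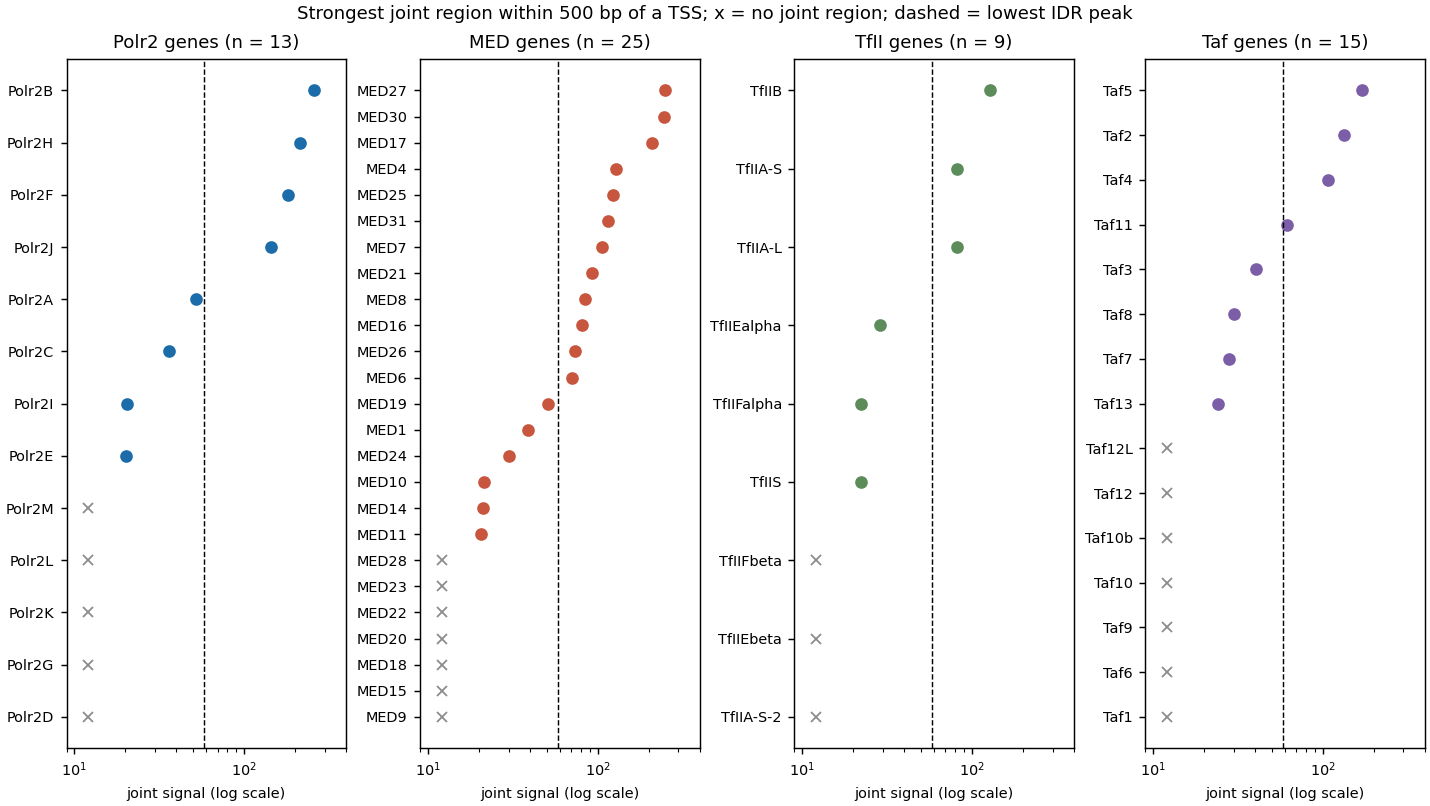
Joint signal on a log axis for the strongest joint region within 500 bp of a start site, for each of the 62 genes in 4 panels by gene group. Crosses mark genes with no joint region, placed at an arbitrary position on the left, and the dashed line marks the weakest IDR peak (58.2). The 4 bound Polr2 genes lie between 145.1 and 260.9, well to the right of the line, whereas the 12 bound MED genes spread from 70.5 to 251.3.

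Polr2B, one of the pair of large subunits that form the catalytic cleft of the polymerase, had the strongest region of all 62 members. Its IDR peak (chr3R:14125626-14125843, dm6) had a joint signal of 260.9, which placed it 171st in the joint list, and signals of 140.3 in replicate 2 and 124.8 in replicate 3. Polr2H (chr3L:21728717-21728894), a subunit shared by all nuclear RNA polymerases, had a joint signal of 215.2, with 114.5 in replicate 2 and 106.4 in replicate 3. Polr2F (chr3R:5371657-5371842), another shared subunit, had a joint signal of 181.0, with 83.1 in replicate 2 and 89.7 in replicate 3. The replicates therefore placed these 3 genes in the same order, Polr2B first and Polr2F last. Polr2J, which pairs with Polr2C in the assembly of the enzyme, was the remaining bound gene, with a joint signal of 145.1.

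The other polymerase genes, partners of bound ones among them, had weaker regions or none. Polr2A, which encodes the largest subunit with the C-terminal repeat domain, had a joint signal of 52.0, just under the threshold, with 33.7 in replicate 2 and 17.5 in replicate 3. Polr2C, Polr2I and Polr2E also had joint regions below the threshold, with signals from 20.1 to 36.2. Of the stalk pair that binds the emerging RNA, Polr2G had no region in any list and Polr2D had a region in replicate 2 alone, with a signal of 13.8. Polr2K and Polr2L, both shared with the other polymerases, had no region in any list, so 2 of the 5 shared subunits were bound. Polr2M, whose human counterpart associates with the polymerase rather than forming part of its core, had no region either.

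MED27, MED30 and MED17 were the strongest Mediator genes. MED27 (chr3R:5654886-5655083) had a joint signal of 251.3, with 113.3 in replicate 2 and 136.3 in replicate 3. MED30 (chr3L:654177-654414), like MED27 a subunit that connects the head and tail of the metazoan complex, had a joint signal of 247.9, with 136.2 in replicate 2 and 106.8 in replicate 3. MED17 (chr3R:18188753-18189172), the central subunit of the head, which contacts the polymerase, had a joint signal of 208.9, with 130.6 in replicate 2 and 86.6 in replicate 3. The order of these 3 genes differed between replicates, with MED30 highest in replicate 2 and MED27 highest in replicate 3.

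The bound Mediator genes came from every module with more than 1 member. They comprised 3 of 7 head genes (MED6, MED8 and MED17), 5 of 9 middle genes (MED4, MED7, MED21, MED26 and MED31), 2 of 5 tail genes (MED16 and MED25) and 2 of the 3 genes MED27, MED28 and MED30. The modules are those known from yeast and mammalian Mediator, and the split was made after the values were seen. Joint signals of the bound genes not described above were 128.3 for MED4, 123.3 for MED25, 115.0 for MED31, 106.6 for MED7, 92.6 for MED21, 84.6 for MED8, 80.7 for MED16, 73.1 for MED26 and 70.5 for MED6. MED14, the scaffold that joins head, middle and tail, had a joint signal of 21.1, and MED1, MED10, MED11, MED19 and MED24 were likewise below the threshold. MED9, MED15, MED18, MED23 and MED28 had no region in any list, and MED20 and MED22 had weak regions in replicate 2 alone.

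TfIIB and both subunits of TFIIA were bound, while the genes for TFIIE and TFIIF, which join with the polymerase, and for the elongation factor TFIIS did not reach the threshold. TfIIB (chr2L:10430768-10431187), whose protein bridges the TATA-binding protein and the polymerase, had a joint signal of 127.5, with 74.5 in replicate 2 and 47.7 in replicate 3. Its summit lay 360 bp from the TfIIB start site but 60 bp from that of Bug22, so the peak cannot be assigned to TfIIB alone. TfIIA-S (chr3R:23890887-23891306), the small subunit of the factor that steadies TFIID on DNA, had a joint signal of 81.8, with 45.9 in replicate 2 and 33.3 in replicate 3. TfIIA-L (chr3R:27253045-27253464), the large subunit, had an almost equal joint signal of 81.6 but is supported by 1 replicate, with 50.5 in replicate 2 and no region with a summit within 150 bp in replicate 3. The TfIIA-L summit lay in an intron, 175 bp upstream of an internal start site of the gene, and within 500 bp of a start site of pll. TfIIEalpha, TfIIFalpha and TfIIS had joint signals from 22.1 to 28.9. TfIIFbeta had a region in replicate 2 alone, with a signal of 12.7, and TfIIEbeta and TfIIA-S-2, a paralogue of TfIIA-S, had no region in any list.

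Among the TFIID genes, Taf5, Taf2 and Taf4 were the strongest. Taf5, a WD-repeat subunit at the core of TFIID, had a joint signal of 171.3, with 81.8 in replicate 2 and 90.4 in replicate 3, and was the single member with 2 IDR peaks at its promoter. Taf2 (chr3L:9888665-9889084), which in TFIID contacts the initiator, had a joint signal of 134.0, with 77.1 in replicate 2 and 56.2 in replicate 3. Taf4 (chr3L:16113439-16113858), which in TFIID pairs with Taf12 through a histone fold, had a joint signal of 108.1, with 60.2 in replicate 2 and 48.0 in replicate 3. Both replicates placed Taf5 first and Taf4 last of the 3.

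In none of the histone-fold pairs described here, as known from yeast and human TFIID, were both genes bound. With 4 of 15 Taf genes bound (26.7%), a pair with both genes bound would be uncommon in any case, and the pairs were not tested. Taf4 was bound and Taf12 had no region in any list. Taf11 was bound, with a joint signal of 62.0, and its partner Taf13 had 24.1, below the threshold. Of Taf6 and Taf9, the first had a region in replicate 2 alone, with a signal of 15.2, and the second none. Taf8 and Taf3, which each pair with Taf10, had joint signals of 30.2 and 40.3. Taf10 and Taf10b are a divergent pair of paralogues whose start sites lie 45 bp apart, and they shared 1 region of replicate 2, with a signal of 11.7, with none in the joint list. Taf7 had a joint signal of 28.2, Taf1, the largest TFIID subunit, had a region in replicate 2 alone, with a signal of 9.05, and Taf12L had no region.

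The IDR threshold ran through a continuous range of signals. Just above it stood Taf11 with a joint signal of 62.0, MED6 with 70.5 (39.2 in replicate 2 and 27.3 in replicate 3) and MED26 with 73.1 (36.8 in replicate 2 and 34.9 in replicate 3). Just below it stood Polr2A with 52.0, MED19 with 50.6 and Taf3 with 40.3 (14.3 in replicate 2 and 22.5 in replicate 3). The 17 members with a joint region below the threshold had a median joint signal of 28.2, beside 28.3 over the 3610 protein-coding genes of the same kind. The 23 bound members had a median of 123.3, beside 101.2 over the 2302 bound protein-coding genes. By group the medians over bound members were 198.1 for Polr2, 121.1 for Taf, 110.8 for MED and 81.8 for TfII.

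Summits lay just upstream of the nearest annotated start site at nearly every bound member. At 22 of the 23 bound members (95.7%) the summit was upstream of the nearest start site of the gene, beside 91.2% of the 2302 bound protein-coding genes. The median distance from the start site was -128 bp in members and -150 bp over bound protein-coding genes, where a negative value is upstream. The distance fell between 50 and 250 bp upstream at 16 of 23 members (69.6%), beside 61.9% over bound protein-coding genes. At Polr2B it was -103 bp, at MED27 -148 bp, at TfIIB -360 bp and at Taf5 -103 bp. The exception was MED26, on the small chromosome 4, whose summit lay 394 bp downstream of its start site, in an intron. At MED6, TfIIA-L and Taf4 the nearest start site was an internal one, so the summit lay within the annotated gene. By annotation 14 of the 23 summits were intergenic, 5 lay in a 5′ untranslated region, 3 in an intron and 1, at MED4, in an exon of the noncoding antisense RNA asRNA:CR43470. The annotation counts features of any gene. At Polr2H, MED31, Taf2 and Taf11, all in a 5′ untranslated region, the summit lay upstream of the member and past the start site of its head-to-head neighbour.

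**Figure D2:**
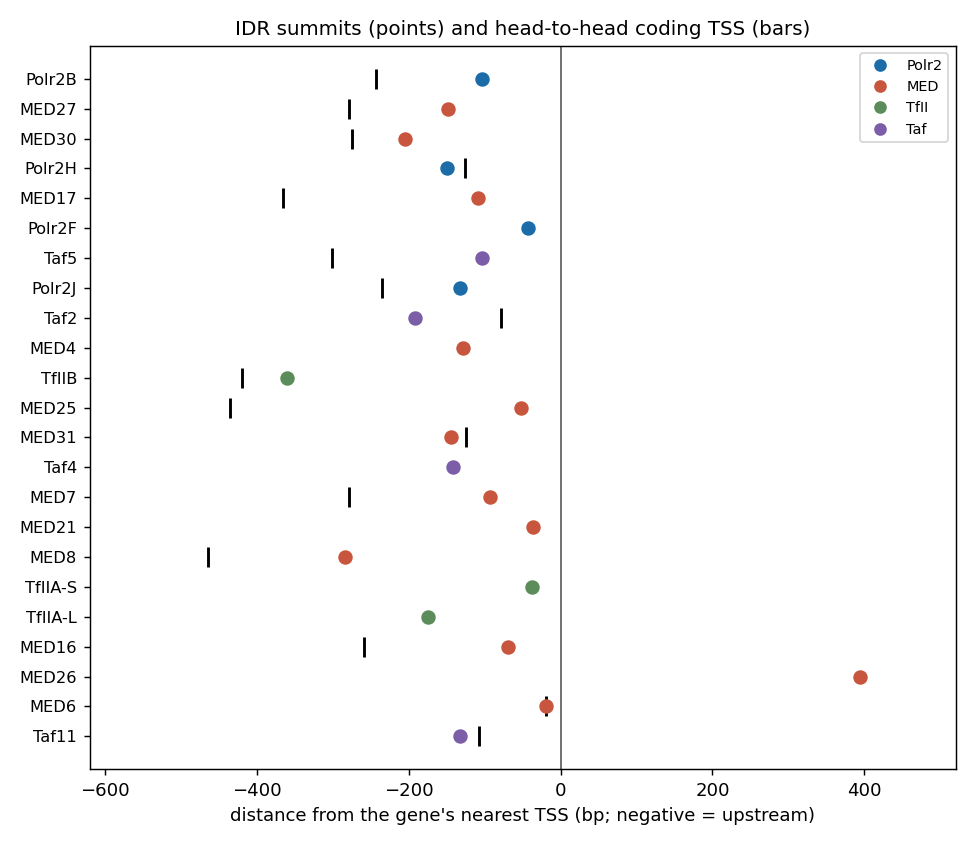
Distance of the IDR summit (points, coloured by gene group) from the nearest start site of each of the 23 bound members, in bp, ordered by joint signal from the strongest at the top. Black bars mark the start site of a head-to-head coding neighbour where one is paired with that start site. All points but that of MED26 (394 bp) lie at negative distances, between -360 bp at TfIIB and -19 bp at MED6.

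Most members share their upstream region with a gene that runs the other way. A start site of another coding gene lay upstream in head-to-head orientation within 1000 bp at 44 of the 62 members (71.0%), beside 36.2% of all protein-coding genes. Of these 44 members 18 had an IDR peak (40.9%), beside 29.8% of all head-to-head protein-coding genes. Of the 18 members with no such neighbour 5 had an IDR peak (27.8%), beside 8.98% of all such protein-coding genes. The members' share was thus above that of all protein-coding genes in both classes, and the members held more head-to-head genes to begin with. At 12 of the 18 bound members with such a neighbour the summit lay between the 2 start sites. At 17 of the 23 bound members (73.9%) the summit was also within 500 bp of the start site of another coding gene, beside 59.7% of bound protein-coding genes, so the region cannot be assigned to the member alone. Partners included 140up at Polr2B, elm at MED27, Rev1 at MED30 and Pex6 at Taf5. Polr2F, MED21, MED26, TfIIA-S and MED4 were bound with no head-to-head coding neighbour.

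Bound members were most frequent among pairs whose start sites lay neither very close nor far apart. Members whose neighbour lay 201 to 500 bp away were bound in 11 of 18 cases (61.1%), beside 40.4% of all protein-coding genes with that gap. With gaps of 1 to 100 bp, 2 of 11 members were bound (18.2%), beside 24.4% of all such genes. The 2 bound ones were MED6 and Taf2, and the 9 unbound ones were Polr2D, MED10, MED18, MED20, MED23, MED28, Taf10, Taf10b and Taf12. Taf10 and Taf10b are each other's neighbour, so their shared gap is counted for both. With gaps of 101 to 200 bp, 4 of 9 members were bound (44.4%), beside 21.5%, and with gaps of 501 to 1000 bp, 1 of 6 members was bound (16.7%), beside 18.1%. The members were therefore above all protein-coding genes at gaps of 101 to 500 bp and below them at shorter and longer gaps, where a change of 1 gene would turn the order. These gap classes were chosen after the values were seen, and at narrow gaps the 500 bp window covers both genes. The gap and the IDR peak can also belong to different start sites of a gene. At TfIIA-L (gap 105 bp) and Taf4 (gap 586 bp) the summit was nearest to another start site of the member. It lay 2248 bp and 1023 bp from the neighbour's start site.

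**Figure D3:**
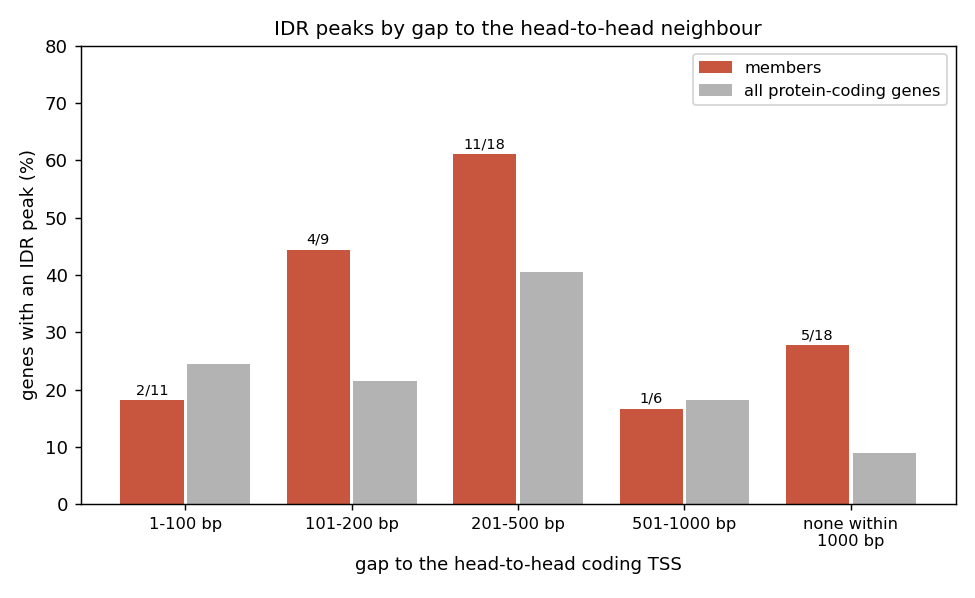
Percentage of genes with an IDR peak by the gap between the start site of the gene and that of its head-to-head coding neighbour, for members (red, left) and for all protein-coding genes (grey, right), with the bound and total number of members above each red bar. The highest pair of bars stands at gaps of 201 to 500 bp, with 61.1% of members and 40.4% of all protein-coding genes.

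The members were spread over all 6 arms, and bound members were found on each arm but X. None of the 6 X-linked members (Polr2A, MED18, MED22, TfIIA-S-2, Taf8 and Taf9) had an IDR peak, beside 13.8% of all protein-coding genes on X. A single bound gene among these 6 would turn the order. The split by arm was made after the values were seen and was not tested.

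The replicates agreed on most bound members, which was partly fixed in advance because IDR peaks had passed a reproducibility threshold. The strongest IDR peak at each of the 23 bound members had a region with a summit within 150 bp in replicate 2. In replicate 3, 22 had one (TfIIA-L being the exception). Matches in both lists were thus found at 95.7% of bound members, beside 95.1% of the 2302 bound protein-coding genes. At 21 of 23 members (91.3%) the matches were among the 3438 strongest regions of both replicates, beside 75.3% of bound protein-coding genes. The other exception besides TfIIA-L was Taf11, with 37.4 in replicate 2 and 21.7 in replicate 3, where it ranked 4389th. The ratio of the replicate 2 signal to the replicate 3 signal ranged from 0.83 to 1.72 over the 22 members, with a median of 1.25, beside 1.32 over bound protein-coding genes. The summits of the 2 replicates lay a median of 27 bp apart, beside 34 bp. As a description, Spearman's rho between the replicate signals was 0.93 over the 22 members and 0.71 over 2189 bound protein-coding genes. The points share 2 libraries, and the joint list that chose them draws on both. The median joint signal was also higher in bound members, 123.3 beside 101.2 over bound protein-coding genes, and the shares of matches were not adjusted for it.

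**Figure D4:**
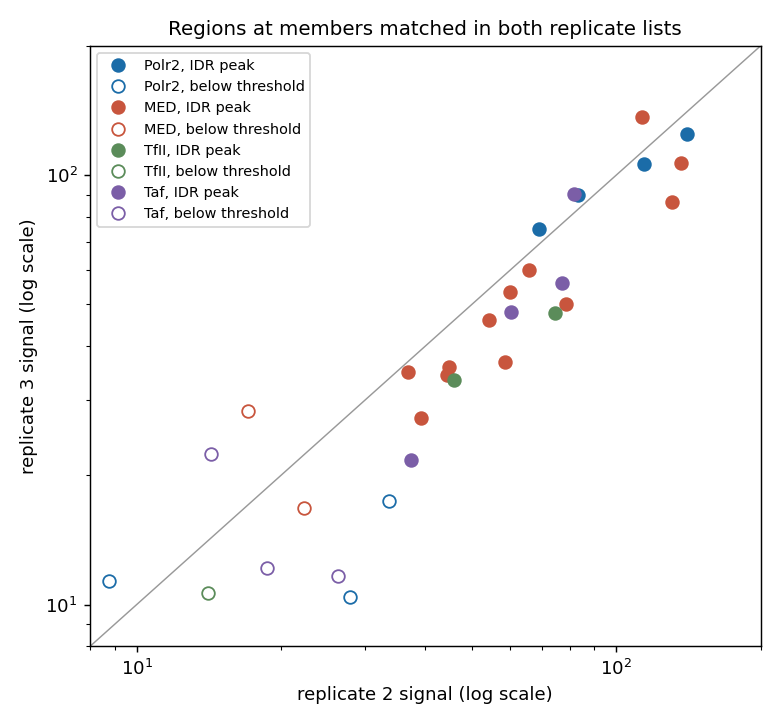
Signal in replicate 2 on the horizontal axis and in replicate 3 on the vertical axis, both log scaled, for members whose joint region had a match in both lists. Filled points are IDR peaks, open points are joint regions below the threshold, colours give the gene group, and the grey line marks equal values. Among the filled points Taf11 (37.4 in replicate 2 and 21.7 in replicate 3) is near the low end and Polr2B (140.3 and 124.8) near the high end, and most lie below the line, where replicate 2 is the higher.

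Each replicate on its own gave nearly the same count of bound members. Among the 3438 strongest regions of replicate 2, 23 members had one at the promoter (37.1%), beside 16.4% of all protein-coding genes. Among those of replicate 3, 22 members had one (35.5%), beside 15.4%. MED19 entered the strongest regions of replicate 3 alone, with a signal of 28.2, against 17.1 in replicate 2. With the full lists, 48 members had a region in replicate 2 (77.4%, beside 50.8%) and 32 in replicate 3 (51.6%, beside 37.3%), so the weaker regions at members were found more often in replicate 2. The 8 members seen in a replicate list but not in the joint list were seen in replicate 2 alone, and 14 members had no region in any list.

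A set of 8 short motifs of fly core promoters were looked for, on either strand, up to 100 bp from each summit. The DNA replication-related element, DRE (TATCGATA), the site of the factor Dref at many housekeeping promoters, was found at 3 of 23 bound members (13.0%), beside 5.88% of 1600 IDR peaks at protein-coding promoters. These were MED7, MED17 and MED25. The stretch around the DRE of MED17 lies outside annotated exons and is shown from RefSeq Release 6 with the DRE in capitals and 15 bases to either side.
MED17, chr3R:18189030-18189067, plus strand: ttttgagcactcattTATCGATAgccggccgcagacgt
The shorter CGATA, which also lies within the DRE, was found at 9 members (39.1%), beside 35.9%. The core of the housekeeping motif 6 (GTATNTTT) was found at 5 members, MED4, MED31, Taf2, Taf5 and Taf11 (21.7%), beside 11.9%, and that of motif 1 (GGTCACAC) at none, beside 1.94%.

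The other motifs, like CGATA and the motif 1 core, were found at shares within about 1 gene of 23 of those over all promoter peaks. The TATA box (TATAAA) was found at 9 of 23 members (39.1%), beside 43.9%, but within 50 bp of the summit at 7 (30.4%), beside 27.1%, so its order turned with the window. Within 100 bp, GAGAG, the site of GAGA factor, was found at 3 (13.0%), beside 16.6%. The E-box (CAGCTG) was found at 1 (4.35%), beside 9.44%, and the initiator (TCAGTT) at 2 (8.70%), beside 12.4%. The median content of A and T within 100 bp of the summit was 67.2% both in bound members and in all promoter IDR peaks, and members ranged from 52.7% at Polr2F to 81.6% at Taf2. In the 200 bp before the start site, the motif 6 core was found in 5 of 23 members with an IDR peak (21.7%) and in 13 of 39 without one (33.3%), beside 11.4% of all protein-coding promoters, and the DRE in 4 of 23 and 6 of 39, beside 7.39%. Both motifs thus occurred in members irrespective of an IDR peak. The E-box was found there in 1 of 23 (4.35%) and 2 of 39 (5.13%), beside 11.6%, so it was below the background in both. So were the initiator, in 1 of 23 and 2 of 39, beside 15.2%, and GAGAG, in 3 of 23 and 5 of 39, beside 22.2%. A single member is 4.35% of the 23, and a match is a run of letters and not a bound site.

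Other genes of the transcription machinery, outside the symbol rule, fell on either side of the background. For TFIIH, which opens the promoter, 4 of 10 genes had an IDR peak, led by Ssl1 with a joint signal of 698.3 at a region within 500 bp of the Chro start site too, followed by Tfb5 with 90.5 and Xpd with 74.7, which had no match in replicate 3. In the Mediator kinase module 2 of 4 genes were bound, skd with 111.3 and Cdk8 with 60.6. For the SAGA coactivator, which shares TAFs with TFIID, 7 of 15 genes were bound, led by Ada2b with 153.5, Gcn5 with 146.2 and Spt3 with 95.2. Among genes for pausing and elongation 7 of 21 were bound, led by bin3 with 192.0, Cdk12 with 189.7 and Nelf-E with 188.1. Among Integrator genes, whose complex ends transcription at paused and small nuclear RNA genes, 5 of 11 were bound, led by IntS6 with 180.3, IntS9 with 105.8 and IntS4 with 86.4. As at Ssl1, the summits at Tfb5, Xpd, skd, Gcn5, Spt3, Cdk12, Nelf-E, IntS6 and IntS9 were within 500 bp of another coding start site. Those at Cdk8, Ada2b, bin3 and IntS4 were not. The replicates differed at Nelf-E, with 135.9 in replicate 2 and 41.3 in replicate 3.

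Among the TATA-binding protein family, Tbp, Trf and Trf2, 2 of 3 genes had a joint region, with 0 IDR peaks. The 4 testis TAF homologues can, mia, nht and sa, which act in spermatocytes, had no joint region. Of the 7 Polr1 genes for RNA polymerase I none had an IDR peak and 3 had a joint region. Of the 10 Polr3 genes for RNA polymerase III 6 had a joint region and 1 had an IDR peak, Polr3E with 166.0. The Polr3E summit was also within 500 bp of a start site of CG10584. These short lists are read beside the 16.5% of all protein-coding genes with an IDR peak and the 42.4% with a joint region, and no difference between lists was tested.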

How the data were processed

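The authors deposited lists of ChIP-seq regions for each replicate, a joint list and an IDR-thresholded list, in dm6 coordinates. The caller's signal value is a score, per the deposited lists; no source used here gives its scale, the caller, the IDR threshold or read depth, so no interval could be set. Lists in the older dm3 build were not used. Genes, start sites and exons came from Ensembl release 115, and sequence from RefSeq Release 6. Summits within 500 bp of a start site were assigned to that gene, the strongest standing for it, and regions of different lists were matched at 150 bp between summits. With 1 group there was no comparison of conditions and no test; counts stand beside those over all protein-coding genes. The members and lists were chosen with earlier results of these data known, and the head-to-head, gap, arm and module splits after the values were seen. Members with an IDR peak are all named; replicate values are given for the 3 strongest of each gene group, the 3 members on either side of the threshold and members whose IDR peak was unmatched in 1 replicate. Of the pathway symbols, rye, Nelf-B, Paf-AF9 and atu matched no gene, nor did HEXIM, a second spelling of Hexim, which was matched. Counting was tested on simulated regions. Python 3.11.15, numpy 2.4.6, scipy 1.17.1 and matplotlib 3.10.9 were used.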

Additional observations from a re-analysis of the deposited data

How the results depend on the processing

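The count of bound members stayed within 1.5 times its value with windows of 250 or 1000 bp, with 1 start site per gene, with start sites of protein-coding transcripts alone and with any overlap of region and window. With 250 bp 32.3% of members were bound, beside 12.7% of all protein-coding genes, and with 1000 bp 38.7%, beside 18.8%. The count moved with the peak threshold, as did the share of all protein-coding genes. With the 860 strongest IDR peaks it was 9 of 62 (14.5%, beside 5.25%), with 3 MED, 0 TfII and 2 Taf genes. With every joint region it was 40 (64.5%, beside 42.4%), with 8 Polr2, 6 TfII and 8 Taf genes. Leaving out 1 replicate gave 22 to 23 members, 4 Polr2, 12 to 13 MED, 2 to 3 TfII and 3 to 4 Taf genes. The percentage of summits upstream was 90.5% with 1 start site per gene. That setting left 21 members bound, without MED6 and TfIIA-L. The percentage was 91.3% to 95.5% with 1 replicate left out. Motif counts at single summits rest on few genes and 9 of them moved by over 1.5 times with windows of 50 or 200 bp. No paired analysis was possible because there is 1 group. The absence of a control and of read depth limits every statement about members without a region.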
